A study of Bos taurus with 15 samples.

Results

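The genes described here are the 43 ribosomal protein genes that could be named in the count table of dominant follicle (DF) oocytes of the cow, among 21218 genes with a row in that table. The count table holds gene identifiers without names, so a symbol was given only to genes on the study's list of genes that differed between DF oocytes and oocytes that had just finished growing, and the members are those whose symbol there marks a ribosomal protein. There were 28 proteins of the cytosolic ribosome, 14 of its large subunit (symbols in RPL) and 14 of its small subunit (symbols in RPS), and 15 proteins of the mitochondrial ribosome, 7 named for its large subunit (MRPL) and 8 for its small subunit (MRPS). For scale, the RefSeq annotation of cattle names 85 cytosolic and 78 mitochondrial protein-coding genes under the same rule, so the remaining ribosomal proteins are not analysed here. Of the members, 26 of the 28 cytosolic and 5 of the 15 mitochondrial genes (MRPL39, MRPS14, MRPS18C, MRPS21 and MRPS26) stand on the side of that list that was higher in DF oocytes. The other 12 members, which are RPLP0, RPSA and 10 mitochondrial genes, stand on the opposite side. That list was drawn up with these same DF oocytes, and the compartment of a member and its side of the list cannot be fully told apart.

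Single oocytes were taken from the dominant follicle of crossbred nulliparous beef heifers, mostly Limousin and Charolais crosses, each from a different animal, and were freed of cumulus cells before lysis. Oestrus was synchronised in all of them with gonadotrophin-releasing hormone (GnRH), a progesterone-releasing intravaginal device and prostaglandin F2α. The T1 group was collected 24 h before ovulation (n = 6, T1.1 to T1.6), the T2 group 19 to 23 h after oestrus was detected (n = 4, T2.1 to T2.4) and the T3 group 2 h before ovulation (n = 5, T3.1 to T3.5). The T1 heifers were slaughtered a day before the others. A subgroup slaughtered on the later day had received a second GnRH injection, which the methods tie to the T3 heifers in wording that could also include the T2 heifers. Time therefore cannot be told apart from this treatment and the day of collection. The titles of the T2 samples read as hours before ovulation, whereas their treatment labels give hours after oestrus, which is followed here. The heifers came from a pair of earlier trials, and the trial of each oocyte is not given in the sources used here. The study kept 11 oocytes, 5 of T1, 4 of T2 and 2 of T3, and left out T1.4 and, of the T3 group, T3.5, T3.3 and T3.1. The reason its methods give for exclusion is few counts inside genes. In the deposited counts T3.5, T3.3 and T3.1 had 175263, 271763 and 620910, but T1.4 had 2874041, within the range of the oocytes kept. Tests were run on the 11, and class values and most values by oocyte are shown for all 15.

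Each ribosome is built from ribosomal RNA and many different proteins, and messages of the cytosolic ones carry a terminal oligopyrimidine tract that ties their translation to growth signalling. The cytosolic ribosome translates messenger RNA from the nucleus, and the mitochondrial ribosome, whose proteins are also encoded in the nucleus and imported, translates the few messages of the mitochondrial genome. A growing oocyte builds up a store of ribosomes and messages, and once transcription has ceased in the fully grown oocyte, messages change mainly through the length of the poly-A tail and through decay.

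Messages were captured by their poly-A tail (Smart-seq2), so a message with a short tail is captured less well, and a change in tail and a change in amount cannot be told apart in these counts. Levels are given as CPM, that is, counts scaled to a common library size with factors from the trimmed mean of M-values (TMM), or as log2 CPM with a prior count of 2; they are relative to the other messages of the same oocyte, and the RNA content of an oocyte was not measured. Total counts ran from 824854 to 4894970 over the 11 oocytes and were as low as 175263 in T3.5 over all 15. Ribosomal protein genes have many processed pseudogene copies, and how reads that match several copies were treated is not given in the sources used here, so the level of a single gene is uncertain. No gene lengths were at hand, so what is compared is how each gene differed between oocytes; the mean log2 CPM of a gene, which also depends on its length, served only to choose members to show and is no comparison of transcript numbers.

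Messages of the cytosolic ribosome were scarce in all 4 T2 oocytes, while T1 oocytes differed widely among themselves. The 28 cytosolic members took 0.625%, 2.99%, 0.670%, 1.82% and 0.642% of all counts in T1.1, T1.2, T1.3, T1.5 and T1.6. In T2.1 to T2.4 they took 0.216%, 0.338%, 0.276% and 0.362%. In T3.2 and T3.4 they took 1.2% and 2.38%. Every T2 oocyte was thus below every T1 and T3 oocyte among the 11. The nearest values were 0.362% in T2.4, with a 95% Wilson interval of 0.354% to 0.370%, and 0.625% in T1.1, with an interval of 0.616% to 0.633%. Such intervals cover counting error only, since the reads carry no molecular identifiers. The share averaged 1.35 ± 1.05% in the 5 T1 oocytes, 0.298 ± 0.0654% in the 4 T2 oocytes and 1.79 ± 0.833% in the 2 T3 oocytes (SD).

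Of the 4 oocytes that the study left out, T1.4 had a cytosolic share like the T1 oocytes with high values, and T3.1 one like the T2 oocytes. Gene by gene T3.1 was unlike T2: it was above every T2 oocyte for 12 of the 28 cytosolic members and below every T2 oocyte for 9. It was below every T2 oocyte for 11 of the 15 mitochondrial members. The cytosolic share was 2.65% in T1.4, 1.23% in T3.3, 1.65% in T3.5 and 0.247% in T3.1. With T3.1 in the T3 group, the T2 and T3 groups therefore overlapped, whereas with T1.4 in the T1 group, T1 and T2 remained apart. On the scale of the mean log2 CPM over the 28 members, the groups were at 7.86 ± 1.37, 5.80 ± 0.32 and 8.73 ± 0.61 (SD) in the 5, 4 and 2 oocytes kept. Over all 15 oocytes T1 was at 8.09 ± 1.35 (SD, n = 6) and T3 at 7.66 ± 1.36 (SD, n = 5).

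The mitochondrial members took 0.240%, 0.829%, 0.182%, 0.536% and 0.145% of the counts in the same T1 oocytes. They took 0.0928%, 0.0958%, 0.122% and 0.148% in T2.1 to T2.4, and 0.487% and 0.365% in T3.2 and T3.4. The highest T2 oocyte, T2.4, stood just above the lowest T1 oocyte, T1.6, so T1 and T2 overlapped here, and both T3 oocytes were above every T2 oocyte. A share of counts is set mainly by the few members with many counts, and the mean log2 CPM, which weighs the 15 genes alike, differed less between the groups, at 5.25 ± 1.07, 4.43 ± 0.33 and 4.97 (SD in T3 of 0.00344, n = 2). Over all 15 oocytes this mean was 5.31 ± 0.97 in T1 (SD, n = 6) and 4.02 ± 1.46 in T3 (SD, n = 5). T3 was then below T2 on this scale, where a member with no count is set at -0.31 log2 CPM in every oocyte. A zero allows up to 6.12, 13.5 and 9.85 CPM in T3.1, T3.3 and T3.5 at 3 counts. The order of T2 and T3 thus depended on the oocytes used and on how zeros are set, and this mean does not decide it. Outside the 11, T1.4 had a mitochondrial share of 0.637%, T3.3 of 0.630%, T3.5 of 0.844% and T3.1 of 0.0221%. In T3.1 10 of the 15 mitochondrial members had no count, against 3 of the 28 cytosolic members, and in T3.5 the numbers were 8 and 1.

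**Figure D1:**
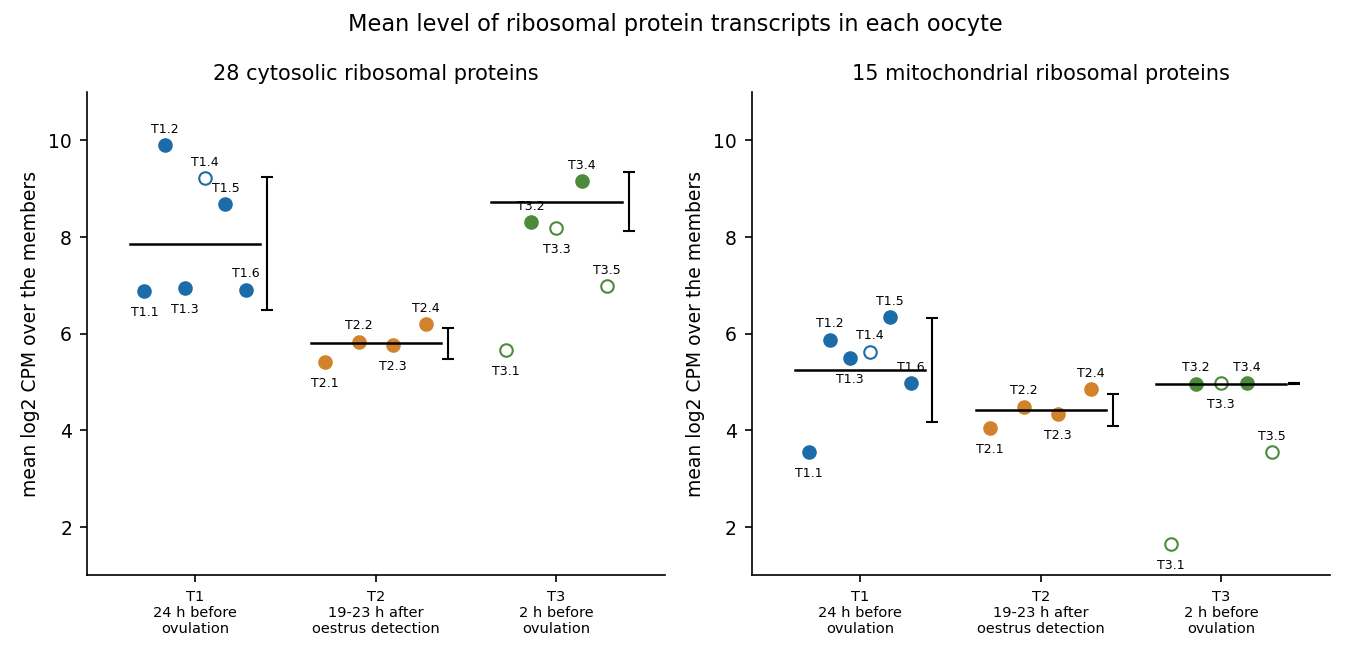
Mean level in log2 CPM (TMM, prior count 2) over the 28 cytosolic and the 15 mitochondrial members in each of 15 oocytes by time point; filled points are the 11 oocytes kept by the study, open points the 4 others, and the line and bar are the mean and SD over the filled points. The cytosolic mean of the 4 T2 oocytes lies between 5.41 and 6.19, below the 5 filled T1 points, while T3.1 (5.67) lies among the T2 values.

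In the tests across all genes, most cytosolic members and a few mitochondrial ones leaned lower in T2 than in T1 and higher in T3 than in T2, but no member passed the adjusted threshold. The 3 time points were fitted in 1 model of the 11 oocytes with the quasi-likelihood test of edgeR, and a gene was called at an adjusted p under 0.05 over all 10198 genes tested with an absolute log2 fold change over 1.5. All 43 members were among the genes tested. The quasi-likelihood test called 0 members in all 3 comparisons, and 0% of the genes tested. At an unadjusted p under 0.05, it had 28 of 43 members in T2 against T1, all 28 lower in T2, where 12.2% of all genes tested had such a p and 9.41% were lower. It had 3 of 43 in T3 against T1, all lower in T3, beside 9.09% of all genes in either direction and 7.47% lower. In T3 against T2 it had 32 of 43, beside 17.3% of all genes, 30 of them higher in T3 (9.03% of all genes) and 2 lower (8.24%). The 28 lower in T2 and the 30 higher in T3 all stand on the DF side of the study's list, which holds 31 members. Those lower in T3 all stand on its other side. The list was drawn up with these same DF oocytes, so the members are not an unselected set to hold against all genes.

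Other tests of the same counts did call members. The likelihood ratio test of edgeR called 24 of 43 members in T2 against T1, all lower in T2 (3.29% of all genes were called lower), 0 in T3 against T1 (1.36%) and 26 in T3 against T2, all higher in T3 (4.21%). DESeq2 called 24 members lower in T2 than in T1 (4.97%), 1 member, MRPL46, lower in T3 than in T1 (3.6%) and, in T3 against T2, 26 higher in T3 (4.55%) and MRPL46 lower (5.34%). The quasi-likelihood calls also turned on single oocytes. Without T1.1, 21 members were called in T2 against T1 and 12 in T3 against T2; without T1.2, 24 were called in T3 against T2; and without T3.2, 3 were. The oocytes are single cells of different animals, and with 2 T3 oocytes the spread of that group is taken from the others.

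The median of the quasi-likelihood log2 fold changes was farther from 0 for the cytosolic members than for all genes tested. Between T2 and T1 the median was -2.98 over the 28 cytosolic members, -1.13 over the 15 mitochondrial members and -0.20 over all genes tested. Between T3 and T2 it was 3.16, 0.70 and -0.10 for the same sets. Between T3 and T1 it was 0.34, -0.23 and -0.21. In T2 against T1 27 of 28 cytosolic and 15 of 15 mitochondrial members had a log2 fold change below 0, beside 58.3% of all genes tested. T2 against T1 and T3 against T2 share the T2 oocytes, so they are not independent of each other. With all 15 oocytes the cytosolic medians were -3.07 (T2 against T1), 2.82 (T3 against T2) and -0.42 (T3 against T1, where the median of all genes was also -0.42), so the sign for T3 against T1 rested on which oocytes were used.

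**Figure D2:**
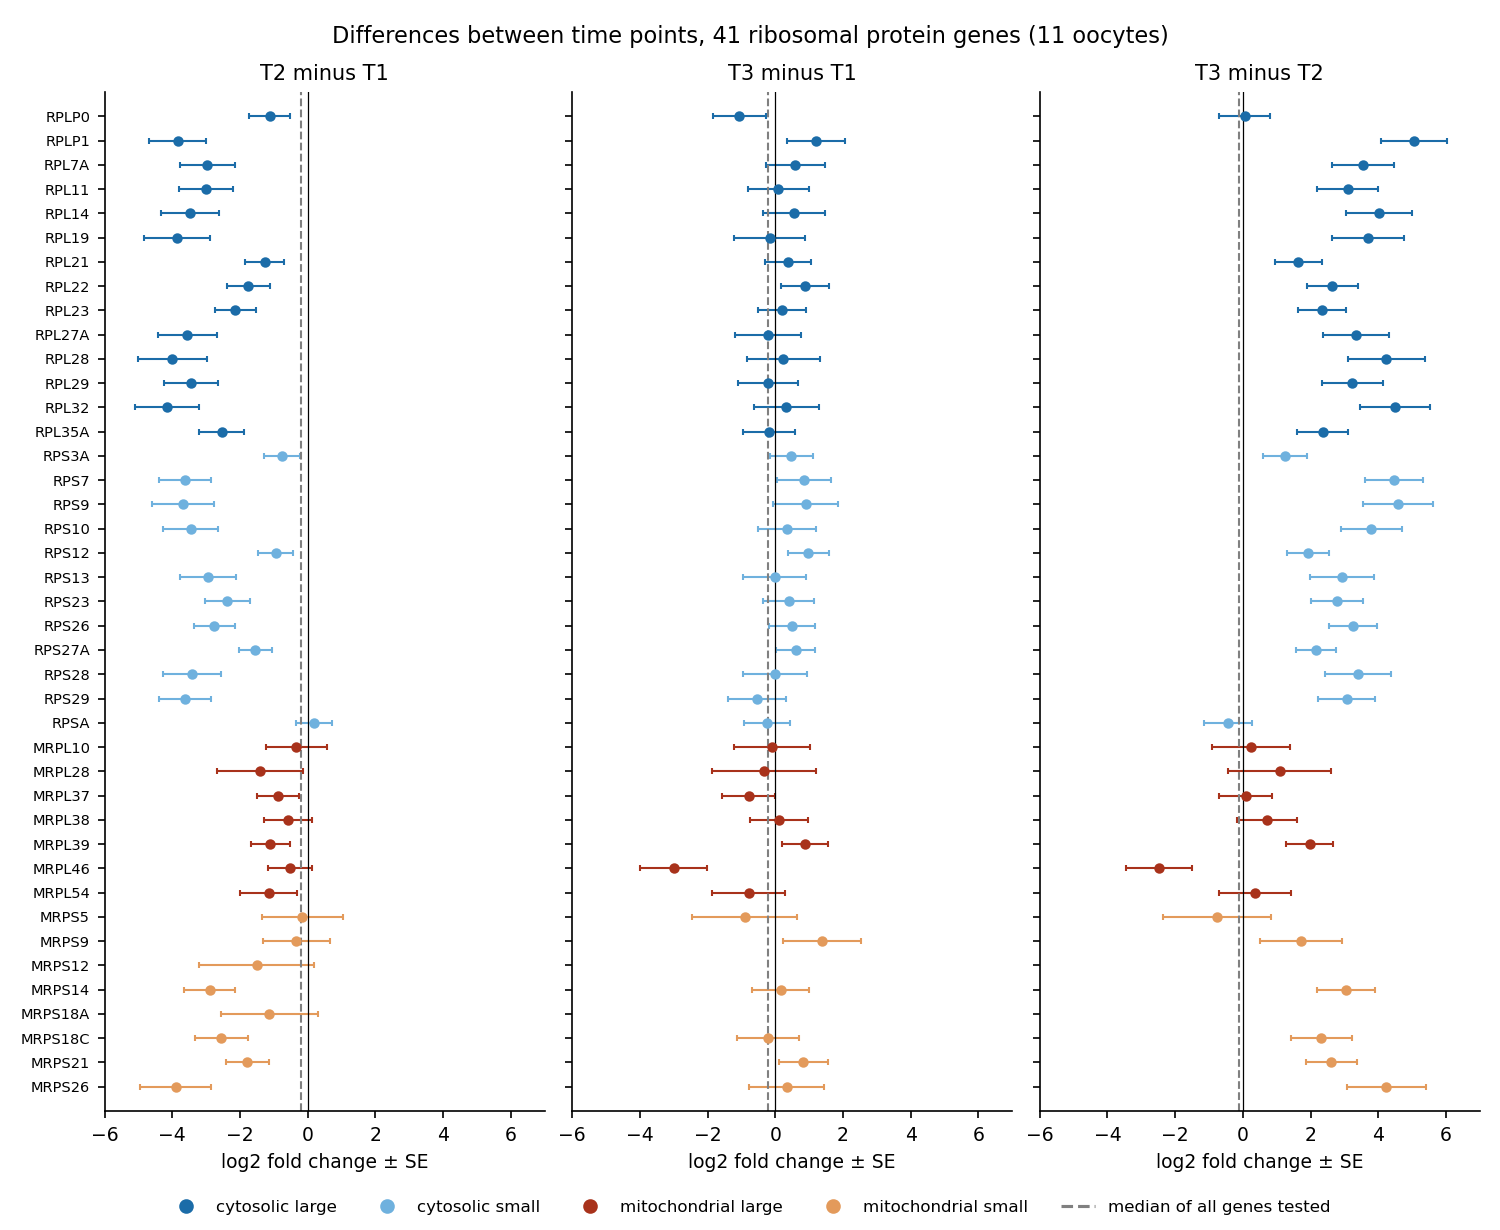
Log2 fold change with its standard error for 41 of the members in T2 against T1, T3 against T1 and T3 against T2 (quasi-likelihood fit of 11 oocytes); colours mark the 4 classes and the dashed line is the median of all 10198 genes tested. MRPS12 and MRPS18A are left out of the panels with T3, where both oocytes had 0 counts; most cytosolic members lie near -3 in T2 against T1 and near 3 in T3 against T2, and only RPSA lies above 0 in T2 against T1.

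Among the cytosolic large subunit proteins, RPLP1 and RPL32 had the lowest p in T2 against T1. RPLP1 (ENSBTAG00000018320) encodes P1, an acidic protein of the stalk that recruits translation factors to the ribosome. Its level was 365, 4471, 529, 1634 and 311 CPM in T1.1, T1.2, T1.3, T1.5 and T1.6 and 2945 CPM in T1.4. In T2.1 to T2.4 it was 68.1, 88.1, 87.5 and 163 CPM. In the T3 oocytes it was 1361 and 5413 CPM in those kept, T3.2 and T3.4, and 969, 2908 and 55.1 CPM in T3.3, T3.5 and T3.1. All 6 T1 oocytes were above all 4 T2 oocytes, and 4 of the 5 T3 oocytes were as well, T3.1 being lower than any. The log2 fold change was -3.84 ± 0.84 (SE) in T2 against T1 (edgeR quasi-likelihood adjusted p = 0.132) and 5.06 ± 0.96 in T3 against T2, or 33.3-fold (adjusted p = 0.0536), which with RPS7 was the lowest adjusted p of any member.

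RPL32 (ENSBTAG00000015283), a structural protein of the large subunit, had the largest fitted difference between T2 and T1 of any cytosolic member. It stood at 60.3, 1253, 56.6, 365 and 63.1 CPM in the 5 T1 oocytes, in the same order, and at 815 CPM in T1.4. The T2 oocytes had 17.2, 19.3, 17.2 and 26.0 CPM. The T3 oocytes had 265 CPM in T3.2 and 639 CPM in T3.4, and, of those not kept, 471 CPM in T3.3, 657 CPM in T3.5 and 63.2 CPM in T3.1. Here no T1 and no T3 oocyte, kept or not, was as low as the highest T2 oocyte. The fit gave -4.17 ± 0.94 in T2 against T1 (edgeR quasi-likelihood adjusted p = 0.132) and 4.50 ± 1.04 in T3 against T2 (adjusted p = 0.0625).

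RPL21 and RPL19, also structural proteins of the large subunit, were the members of this class with the highest mean log2 CPM, and they differed in how far apart the groups were. RPL19 (ENSBTAG00000002060) had 363, 7929, 396, 3694 and 241 CPM in the T1 oocytes, 6460.4 CPM in T1.4 and 229, 169.7, 104 and 193 CPM in the T2 oocytes. It had 1978 CPM in T3.2 and 2530.3 CPM in T3.4, and, of those not kept, 1423 CPM in T3.3, 282 CPM in T3.5 and 247 CPM in T3.1. T1.2, T1.4 and T1.5 stood far above the other T1 oocytes, T1.6 was only just above T2.1, and all 5 T3 oocytes were above every T2 oocyte. RPL21 (ENSBTAG00000001648) had 1231, 2446, 413, 1494 and 603 CPM in the T1 oocytes, 3886 CPM in T1.4 and 173, 731, 486 and 666 CPM in the T2 oocytes. Its T3 values were 1031 CPM in T3.2 and 2174 CPM in T3.4, and, of those not kept, 574 CPM in T3.3, 394 CPM in T3.5 and 404 CPM in T3.1. T1.3 and T1.6 lay within the range of the T2 oocytes, as did the 3 T3 oocytes not kept, so for RPL21 the T1 and T2 groups overlapped. The log2 fold change in T2 against T1 was -3.86 ± 0.97 for RPL19 and -1.27 ± 0.58 for RPL21, and in T3 against T2 it was 3.70 ± 1.06 and 1.64 ± 0.69 (edgeR quasi-likelihood adjusted p = 0.132 and 0.384 in T2 against T1, 0.0914 and 0.237 in T3 against T2).

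In the small subunit, RPS7 and RPS29 had the lowest p in T2 against T1. RPS7 (ENSBTAG00000016224), which besides its place in the small subunit can bind the p53 regulator MDM2, stood at 137, 1616, 258, 639 and 126 CPM in the 5 T1 oocytes and at 1352 CPM in T1.4. The T2 oocytes had 21.6, 42.9, 48.1 and 66.0 CPM. The T3 oocytes had 726 CPM in T3.2 and 1263 CPM in T3.4, and, of those not kept, 659.7 CPM in T3.3, 361 CPM in T3.5 and 26.5 CPM in T3.1. As for RPLP1, T3.1 was the one T1 or T3 oocyte that did not stand above all T2 oocytes. The log2 fold change was -3.63 ± 0.77 in T2 against T1 (edgeR quasi-likelihood unadjusted p = 0.000231, adjusted p = 0.132) and 4.47 ± 0.87 in T3 against T2 (unadjusted p = 9.98e-05, adjusted p = 0.0536).

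RPS29 (ENSBTAG00000052337), a small zinc-binding protein of the small subunit, had 172, 1265, 109.6, 191 and 136 CPM in the T1 oocytes and 723 CPM in T1.4. It had 22.4, 26.5, 33.2 and 39.5 CPM in the T2 oocytes. In T3 it had 134 CPM in T3.2 and 377 CPM in T3.4, and, of those not kept, 305 CPM in T3.3, 59.1 CPM in T3.5 and 171 CPM in T3.1. Over all 15 oocytes T2 did not overlap with the other groups, every T2 oocyte being below every T1 and T3 oocyte, and T1.2 stood far above the other T1 oocytes kept. The fit gave -3.62 ± 0.77 in T2 against T1 and 3.07 ± 0.84 in T3 against T2 (edgeR quasi-likelihood adjusted p = 0.132 and 0.0859), while T3 and T1 differed by -0.55 ± 0.86.

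RPS27A and RPS13 had the highest mean log2 CPM in the small subunit class. RPS27A (ENSBTAG00000015473) encodes ubiquitin fused to a ribosomal protein. Its level was 1498, 2839.9, 644, 1229.5 and 869 CPM in the T1 oocytes, 3185 CPM in T1.4 and 289.8, 693, 436 and 519.6 CPM in the T2 oocytes. In T3 it was 1793 CPM in T3.2 and 2519 CPM in T3.4, and, of those not kept, 2145 CPM in T3.3, 558 CPM in T3.5 and 289.5 CPM in T3.1. T1.3 stood just below T2.2, so the T1 and T2 groups touched, while T3.2, T3.3 and T3.4 were well above all T2 oocytes. RPS13 (ENSBTAG00000040308), a structural protein of the small subunit, had 282, 2884, 124, 2021 and 214 CPM in T1, 2181 CPM in T1.4 and 95.7, 205, 145 and 132 CPM in T2. The T3 values were 1089 CPM in T3.2 and 1100.2 CPM in T3.4, and, of those not kept, 381 CPM in T3.3, 121 CPM in T3.5 and 0 CPM in T3.1. T1.3 and T3.5 lay within the T2 range and T3.1 had no count. The log2 fold change in T2 against T1 was -1.55 ± 0.50 for RPS27A and -2.94 ± 0.83 for RPS13, and in T3 against T2 it was 2.15 ± 0.59 and 2.92 ± 0.94.

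**Figure D3:**
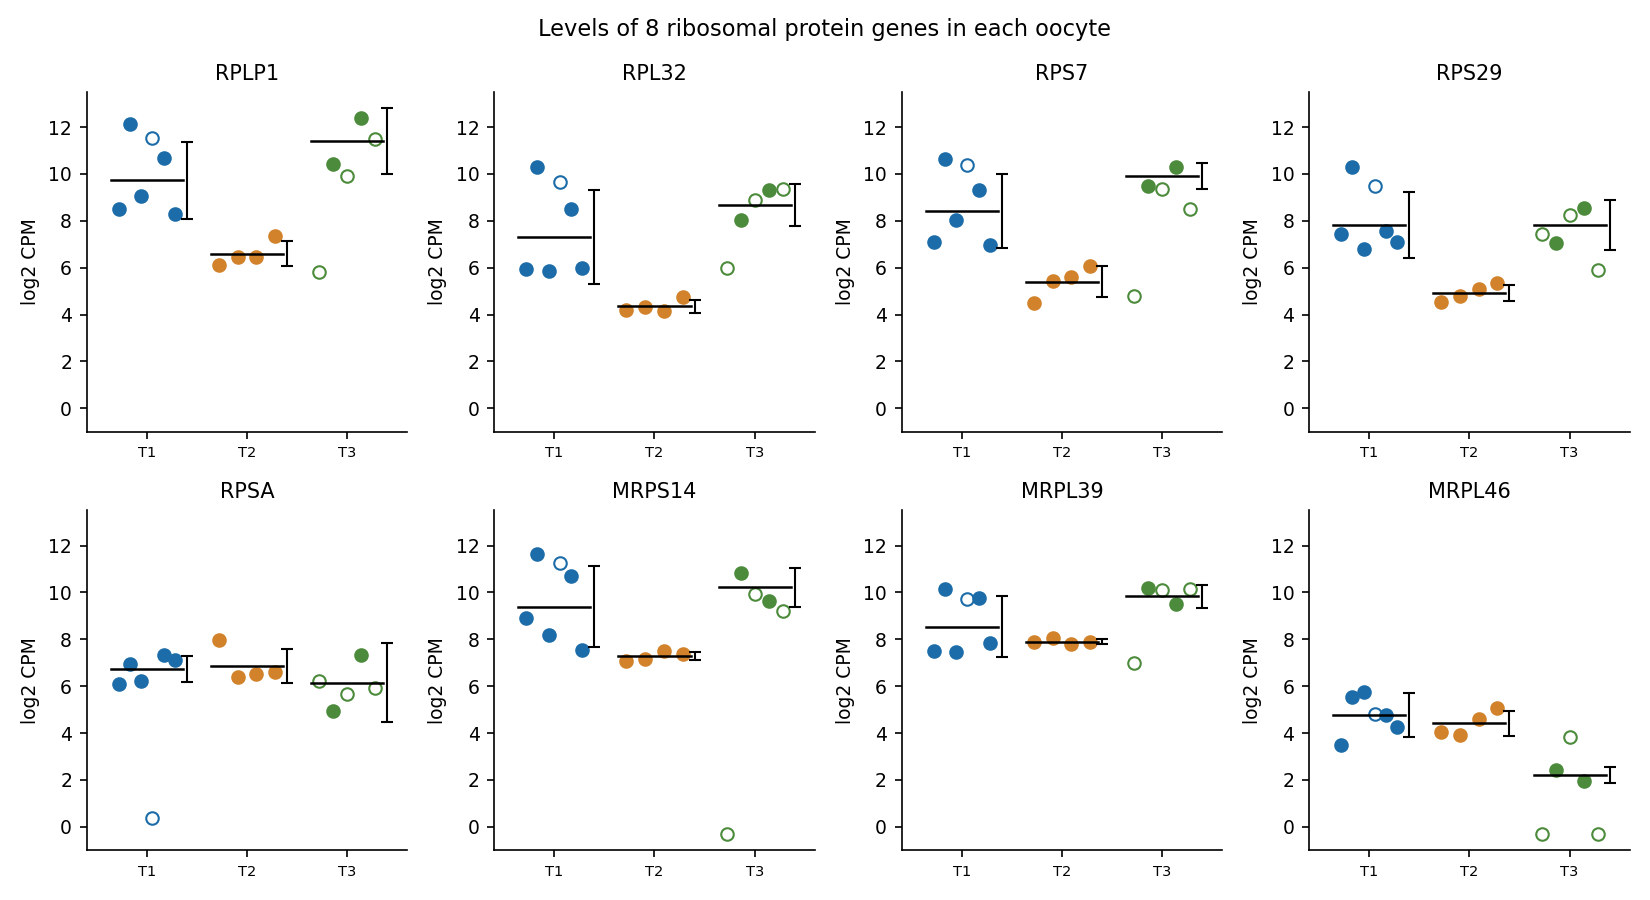
Level in log2 CPM (TMM, prior count 2) of 8 members in each of 15 oocytes by time point; filled points are the 11 oocytes kept, open points the 4 others, and the line and bar are the mean and SD over the filled points. RPLP1, RPL32, RPS7, RPS29 and MRPS14 are low in all 4 T2 oocytes, RPSA shows no such order, and MRPL46 is lower in the T3 than in the T2 oocytes.

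Across the whole cytosolic class, the 24 members with an unadjusted p under 0.05 in T2 against T1 had log2 fold changes from -4.17 (RPL32) to -1.27 (RPL21), that is, they were 2.41- to 17.9-fold lower in T2, with adjusted p from 0.132 to 0.384. For 17 of the 28, every T2 oocyte was below every T1 oocyte of the 11, as it was for 2.3% of all genes tested in that direction. In T3 against T2 the 25 members with an unadjusted p under 0.05 had log2 fold changes from 1.64 (RPL21) to 5.06 (RPLP1), and 19 of them had an adjusted p under 0.1. For 25 of the 28 both T3 oocytes were above every T2 oocyte, beside 16.3% of all genes tested, a larger share since only 2 T3 oocytes are compared. Over all 15 oocytes, in the CPM given here, only 8 members (RPL14, RPL19, RPL28, RPL32, RPS9, RPS10, RPS23 and RPS29) had all 5 T3 oocytes above all T2 oocytes, beside 0.451% of all genes, and with the scaling refitted to the 15 oocytes RPL23 took the place of RPS23. T2 stayed below all 6 T1 oocytes for 17 cytosolic members, beside 1.81% of all genes.

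A further 14 cytosolic members had fold changes in the same directions. RPL11, which like RPS7 can bind MDM2, RPL22, which also binds RNA outside the ribosome, RPL23, RPL7A, RPL14, RPL27A, RPL28, RPL29 and RPL35A, all of the large subunit, had log2 fold changes from -4.0 (RPL28) to -1.76 (RPL22) in T2 against T1 and from 2.33 (RPL23) to 4.24 (RPL28) in T3 against T2. RPS9, RPS10, RPS23, RPS26 and RPS28, all of the small subunit, had log2 fold changes from -3.68 (RPS9) to -2.37 (RPS23) and from 2.77 (RPS23) to 4.59 (RPS9). The 14 of them were each lower in T2 than in T1 and higher in T3 than in T2 at an unadjusted p under 0.05. In T3 against T1 the log2 fold changes of all 28 cytosolic members ran from -1.07 (RPLP0) to 1.21 (RPLP1), with adjusted p from 0.641 to 0.999, and 0 had an unadjusted p under 0.05.

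RPL28 and RPS9 were members for which T1.1 was below every T2 oocyte. RPL28 had 12.1, 787, 68.0, 601 and 33.4 CPM in the T1 oocytes kept, 18.1, 15.4, 22.9 and 18.7 CPM in the T2 oocytes and 208 and 502 CPM in T3.2 and T3.4. RPS9 had 6.03, 567, 127, 391 and 75.2 CPM in the same T1 oocytes, 12.1, 19.3, 17.2 and 23.4 CPM in T2 and 194 and 678 CPM in T3. The other 4 T1 oocytes and both T3 oocytes were above every T2 oocyte for both genes. RPL28 and RPS9 were chosen for this after their values were seen.

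A few cytosolic members did not show this pattern, or showed it in T3 against T2 only. RPLP0, the protein at the base of the stalk that P1 binds, had a log2 fold change of -1.12 ± 0.61 in T2 against T1 and 0.05 ± 0.76 in T3 against T2 (quasi-likelihood unadjusted p = 0.0834 and 0.944). RPSA, a small subunit protein also known as the laminin receptor, had 0.20 ± 0.53 and -0.44 ± 0.70 (unadjusted p = 0.715 and 0.538). Its levels were 67.9, 124, 73.0, 161 and 138 CPM in the T1 oocytes kept, 247, 84.2, 90.4 and 96.8 CPM in the T2 oocytes and 30.1 and 160.4 CPM in T3.2 and T3.4, so that the highest of the 11 values was in T2.1, the oocyte with the lowest level of 18 of the 28 cytosolic members. T1.4 had 1 count of RPSA, or 0.475 CPM. RPS3A and RPS12, both of the small subunit, had log2 fold changes of -0.77 ± 0.53 and -0.94 ± 0.51 in T2 against T1 and of 1.24 ± 0.65 and 1.92 ± 0.62 in T3 against T2 (quasi-likelihood unadjusted p = 0.0732 and 0.00744). For RPS12 both T3 oocytes kept were above every T2 oocyte, and DESeq2 called it higher in T3 than in T2. Of those not kept, T3.1 had 202 CPM of RPS12, and T3.3 and T3.5 had no count. The mean over all 5 T3 oocytes was 4.23 log2 CPM, beside 5.19 log2 CPM in T2, with a zero set at -0.31 log2 CPM. At 3 counts a zero allows up to 13.5 CPM in T3.3 and 9.85 CPM in T3.5. These limits are below the lowest T2 oocyte, at 23.3 CPM, but the order of the means depends on how zeros are set. RPLP0 and RPSA are the cytosolic members from the other side of the study's list, so their pattern is not independent of how they came to be named.

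The spread within T1 was large and ran the same way in most cytosolic members. T1.2 had the highest level of the 5 T1 oocytes kept for 26 of the 28, and T1.2, T1.4 and T1.5 were the 3 highest of all 6 T1 oocytes for 22 of the 28 and for 6 of the 15 mitochondrial members. The median SD of log2 CPM over the T1 oocytes kept was 1.6 for cytosolic members, 1.62 for mitochondrial members and 1.23 over all genes tested. In T2 it was 0.48, 0.52 and 0.63, so there the members varied no more than other genes. Even so, the T1 oocytes with low values stayed above T2 for most cytosolic members: T1.1, T1.3 and T1.6 were above every T2 oocyte for 23, 22 and 25 of the 28 cytosolic members, beside 23.8%, 32.7% and 27.1% of all genes tested. Of the T3 oocytes kept, T3.2 was above every T2 oocyte for 25 of the 28 and T3.4 for 26, beside 30.5% and 30.6% of all genes. Of those not kept, T3.3 was for 24, T3.5 for 18 and T3.1 for 12, beside 20.3%, 9.4% and 19.4%. Of the T1 oocytes kept, the low T1.1, T1.3 and T1.6 had 3472460, 2646223 and 824854 counts in all, and the high T1.2 and T1.5 had 3256291 and 4894970, so that, apart from T1.1, the low oocytes had fewer counts than the high ones. The T2 oocytes had 1071109 to 2851791 counts, within the range of the T1 oocytes, and the part of depth in these results was not tested.

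**Figure D4:**
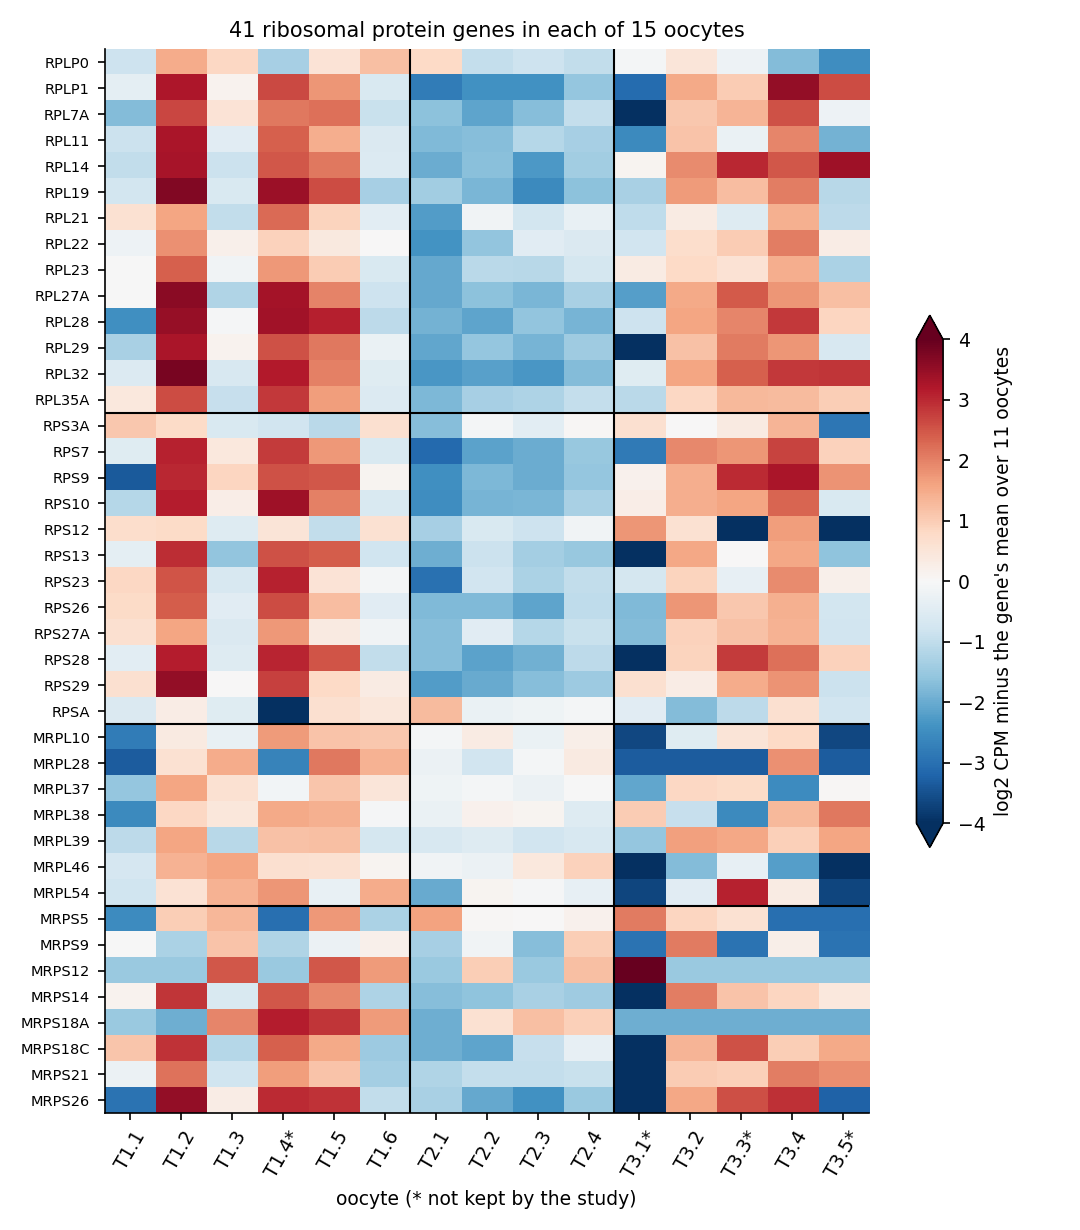
Level of 41 of the 43 members (lines) in each of 15 oocytes (columns, grouped by time point; an asterisk marks the 4 oocytes not kept), as log2 CPM minus the gene's mean over the 11 oocytes kept. Most cytosolic members, though not RPLP0, RPSA, RPS3A and RPS12, form a common pattern, high in T1.2, T1.4, T1.5, T3.2, T3.3 and T3.4 and low in the T2 oocytes, which MRPL39, MRPS14, MRPS18C, MRPS21 and MRPS26 share and most other mitochondrial members do not.

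The cytosolic large and small subunits had medians of the same sign. Their median log2 fold changes were -3.23 and -2.93 in T2 against T1 and 3.28 and 3.04 in T3 against T2. In each oocyte the mean log2 CPM of the 14 large subunit members was set against that of the 14 small subunit members, and the difference was 0.36 ± 0.48 in T1, 0.13 ± 0.16 in T2 and 0.41 ± 0.21 in T3 (SD, n = 5, 4 and 2). The size of this difference has no meaning by itself without gene lengths, and between the groups it moved by less than the SD in T1. In the mitochondrial ribosome the median was -0.87 for the 7 large subunit members and -1.65 for the 8 small subunit members in T2 against T1, and 0.37 and 2.02 in T3 against T2. The large subunit minus small subunit difference there was -0.12 ± 0.71, 0.55 ± 0.31 and -0.64 ± 0.93, in T1, T2 and T3 (SD). The T1 oocytes overlapped with both other groups, while all 4 T2 oocytes (0.12 to 0.85) were above both T3 oocytes kept (-1.29 and 0.02); T3.1, not kept, was at 1.38, above every T2 oocyte. MRPS18A is counted by its symbol here, and with it in the large subunit, where structures of the mammalian mitochondrial ribosome place it, the difference was -0.92 ± 0.92, -0.15 ± 0.44 and -2.05 ± 0.93, so its size and, in T2, its sign depend on that gene. The small subunit holds 4 of the 5 mitochondrial members on the DF side of the study's list, and the large subunit 1, so side and subunit are partly confounded.

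The mitochondrial members are described here by their side of that list. The 5 on the DF side varied with the cytosolic members: over the 11 oocytes their correlation with the mean of the cytosolic members had a median of 0.91 (0.85 to 0.95), against 0.15 (-0.27 to 0.43) for the other 10. For the cytosolic members themselves, each against the mean of the remaining 27, the median was 0.95 and 22 of 28 were over 0.9, beside 2.79% of all genes tested. It was 0.20 for RPLP0, 0.45 for RPS3A, 0.61 for RPS12 and -0.05 for RPSA. These correlations are a description, since the points share the same 11 libraries and their depths. The list was also drawn up with these same oocytes, and most cytosolic members stand on its DF side. How the 5 and the 10 were chosen therefore partly fixes the contrast between them, in the correlations and in the fold changes, and no conclusion is drawn from it. The median log2 fold change was -2.55 for the 5 and -0.73 for the 10 in T2 against T1, and 2.62 and 0.16 in T3 against T2. Set against these 5 alone, the 28 cytosolic members differed less between the groups of the 11 oocytes: the cytosolic minus mitochondrial difference in mean log2 CPM was -0.42 ± 0.41 in T1, -0.84 ± 0.22 in T2 and -0.70 ± 0.58 in T3, whereas against all 15 it was 2.62 ± 1.05, 1.37 ± 0.0400 and 3.76 ± 0.603. Outside the 11, the difference from the 5 was -0.82 in T1.4, -1.45 in T3.3 and -1.35 in T3.5 but 4.52 in T3.1.

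Of the 5, MRPS14 had the lowest p in T2 against T1. MRPS14 (ENSBTAG00000001109), a structural protein of the small subunit of the mitochondrial ribosome, had 488, 3195, 289.9, 1649 and 184 CPM in the T1 oocytes and 2472 CPM in T1.4. It had 135, 144, 179.6 and 165 CPM in T2.1 to T2.4. In T3 it had 1802 CPM in T3.2 and 796 CPM in T3.4, and, of those not kept, 969 CPM in T3.3, 588 CPM in T3.5 and 0 CPM in T3.1. It was the only mitochondrial member with every T2 oocyte below every T1 oocyte of the 11, by a narrow margin between T1.6 and T2.3, and T3.1 had no count of it. The fit gave -2.90 ± 0.75 in T2 against T1 (edgeR quasi-likelihood adjusted p = 0.139) and 3.06 ± 0.85 in T3 against T2 (adjusted p = 0.0869).

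MRPS26 (ENSBTAG00000000825), a protein found in the mitochondrial and not in the bacterial small subunit, spanned the widest range in log2 CPM of the 5 over the T1 oocytes kept. It stood at 4.13, 438, 46.7, 284 and 18.6 CPM in the T1 oocytes, 301 CPM in T1.4 and 14.7, 8.52, 6.29 and 13.0 CPM in the T2 oocytes. In T3 it stood at 111 CPM in T3.2 and 288 CPM in T3.4, and, of those not kept, 229 CPM in T3.3, 3.28 CPM in T3.5 and 0 CPM in T3.1. T1.1 was below every T2 oocyte, so the groups overlapped in spite of a fitted difference of -3.90 ± 1.06 in T2 against T1, and in T3 against T2 the fit gave 4.24 ± 1.17. MRPL39 (ENSBTAG00000019542), a large subunit protein, had the lowest p of its class in both comparisons. Its levels were 182, 1119, 174, 866 and 226 CPM in T1, 844 CPM in T1.4 and 239, 262, 221 and 237 CPM in T2. In T3 they were 1169 CPM in T3.2 and 718 CPM in T3.4, and, of those not kept, 1095 CPM in T3.3, 1126 CPM in T3.5 and 126 CPM in T3.1. The 4 T2 oocytes were close together and lay inside the T1 range, and 4 of the 5 T3 oocytes were above them. The log2 fold change was -1.1 ± 0.57 in T2 against T1 and 1.98 ± 0.69 in T3 against T2 (edgeR quasi-likelihood adjusted p = 0.474 and 0.158).

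MRPS21 (ENSBTAG00000024378), of the small subunit, had 127, 681, 86.4, 332 and 57.6 CPM in the T1 oocytes, 63.8, 76.7, 77.2 and 80.3 CPM in the T2 oocytes and 299.9 and 616 CPM in T3.2 and T3.4. T1.6 was below every T2 oocyte and both T3 oocytes kept were above all of them, with log2 fold changes of -1.78 ± 0.64 in T2 against T1 and 2.62 ± 0.76 in T3 against T2. Of the oocytes not kept, T1.4 had 474 CPM, T3.3 287 CPM and T3.5 545 CPM, while T3.1 had no count.

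The MRPS18 paralogs, which are related to one bacterial protein, had different levels in the T3 oocytes. MRPS18C (ENSBTAG00000018155) had 1773, 6079, 368, 2318 and 299.8 CPM in the T1 oocytes, 4271 CPM in T1.4 and 211, 189, 429.6 and 649 CPM in the T2 oocytes. It had 2086 CPM in T3.2 and 1618 CPM in T3.4, and, of those not kept, 4753 CPM in T3.3, 2331 CPM in T3.5 and 0 CPM in T3.1. T1.3 and T1.6 lay inside the T2 range, T3.1 had no count, and the other 4 T3 oocytes were above every T2 oocyte. MRPS18A (ENSBTAG00000025571) had 0.317, 0, 11.3, 22.0 and 9.28 CPM in the T1 oocytes, 26.6 CPM in T1.4 and 0, 3.93, 6.29 and 5.21 CPM in the T2 oocytes. All 5 T3 oocytes had 0 counts of it, which allows up to 1.25 CPM in T3.2 and 1.32 CPM in T3.4 at 3 counts. In T3.1, T3.3 and T3.5, of low depth, it allows up to 6.12, 13.5 and 9.85 CPM, so their zeros say little beside the T1 and T2 levels. With counts pooled over each group, its level was 10.3 CPM over the T1 oocytes kept and 4.24 CPM over the T2 oocytes. The floor over T3.2 and T3.4 was 3 counts over the pair, or 0.643 CPM. On these pooled levels T3 was at least 16.0-fold lower than T1 and at least 6.59-fold lower than T2. The floors of the single oocytes are higher and give smaller bounds. T1.5 held 97 of the 148 counts over 5 T1 oocytes, so the bound against T1 rests largely on that oocyte. T1.2 and T2.1 also had 0 counts, so the T3 oocytes did not stand apart from T1 or T2. In T2 against T1 the log2 fold change was -2.55 ± 0.79 for MRPS18C and -1.13 ± 1.43 for MRPS18A.

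Of the 10 mitochondrial members on the other side of the list, none had an unadjusted p under 0.05 in T2 against T1, where their log2 fold changes ran from -1.51 (MRPS12) to -0.15 (MRPS5). MRPL37, a large subunit protein and the one with the highest mean log2 CPM of the 10, had 43.8, 389, 198, 283 and 183 CPM in the T1 oocytes, 119.6 CPM in T1.4 and 116, 124, 110.4 and 129 CPM in T2. In T3 it had 232 CPM in T3.2 and 22.0 CPM in T3.4, and, of those not kept, 224 CPM in T3.3, 135 CPM in T3.5 and 30.6 CPM in T3.1. The T2 oocytes were nearly alike and lay inside both other groups, and T3.2 and T3.4 differed widely. The fit gave -0.87 ± 0.62 in T2 against T1 and 0.08 ± 0.79 in T3 against T2. MRPL10, MRPL28, MRPL38 and MRPL54 of the large subunit and MRPS5 and MRPS9 of the small subunit had log2 fold changes from -1.41 (MRPL28) to -0.15 (MRPS5) in T2 against T1 and from -0.75 (MRPS5) to 1.71 (MRPS9) in T3 against T2, and none of the 6 had an unadjusted p under 0.05 in any comparison. Their levels were low, with means over the 11 oocytes of 2.65 log2 CPM (MRPS9) to 4.94 log2 CPM (MRPL38), so that a few counts decide their values in the oocytes of low depth.

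MRPL46, of the large subunit, was the one member with groups apart in the opposite direction. It had 10.5, 46.0, 53.5, 26.6 and 18.6 CPM in the T1 oocytes, 27.5 CPM in T1.4 and 15.5, 14.4, 23.5 and 33.0 CPM in T2. In T3 it had 4.60 CPM in T3.2 and 3.08 CPM in T3.4, and, of those not kept, 13.5 CPM in T3.3, 0 CPM in T3.5 and 0 CPM in T3.1. Both T3 oocytes kept were below every T1 and T2 oocyte, which held for 5.18% of all genes tested against T1 and 18.7% against T2, and with all 15 oocytes T3 stayed below T2 (9.01% of all genes) but met T1 in T1.1 and T3.3. The log2 fold change was -3.00 ± 0.99 in T3 against T1 (edgeR quasi-likelihood unadjusted p = 0.00786, adjusted p = 0.390) and -2.48 ± 0.97 in T3 against T2. The counts behind the T3 values were 11 in T3.2, 7 in T3.4 and 3 in T3.3. The zeros of T3.1 and T3.5 allow up to 6.12 and 9.85 CPM at 3 counts. The order of T3 and T2 over all 15 oocytes thus rests on few counts. MRPS12, of the small subunit decoding site, had 0 counts in T3.2 and T3.4 and in 4 of the other 9 oocytes kept. Counts were pooled over each group for its bounds, with 3 counts over the T3 pair as the floor. On these, the level over the pair was at least 10.7-fold lower than over T1 and at least 3.95-fold lower than over T2. With the floor of a single T3 oocyte both bounds would be smaller. T1.3 and T1.5 held 41 and 51 of the 99 T1 counts, and T3.1, not kept, had 17 counts.

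The remaining genes of the translation machinery could be named only in part, as far as the study's list gives them a symbol. Of 9 translation factors, 1 had an unadjusted p under 0.05 in T2 against T1, the initiation factor EIF1AX at -1.88 ± 0.67, beside 12.2% of all genes tested, and the median of the 9 was -0.62. In T3 against T2 EIF1AX had 3.01 ± 0.80 (quasi-likelihood unadjusted p = 0.00174), and the initiation factor subunit EIF2B2, with 0 counts in T3.2 and T3.4, was the 1 factor lower in T3 than in T2 and in T1 at such a p, beside 8.24% and 7.47% of all genes, so these counts are near the share of all genes. Of 9 tested ribosome biogenesis genes 0 had such a p in T2 against T1, with a median of -0.31. In T3 against T2 2 were lower in T3, beside 8.24% of all genes: EMG1, a methyltransferase of ribosomal RNA, at -4.44 ± 1.24, and UTP15, a processing factor of ribosomal RNA, at -1.67 ± 0.64. EMG1 was also the 1 gene of the 9 lower in T3 than in T1 at such a p, where 7.47% of all genes were (-5.65 ± 1.3, quasi-likelihood unadjusted p = 0.000502, adjusted p = 0.246), with 0 counts in T3.2 and 4 in T3.4. The mitochondrial elongation factors TUFM and TSFM, which work on the mitochondrial ribosome, had -1.53 ± 0.65 and 0.36 ± 0.76 in T2 against T1 (unadjusted p = 0.0312 and 0.640).

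Among the few marker genes that could be named, the oocyte marker OOSP2 was high in all 3 groups, at 11.89 ± 1.35, 12.27 ± 0.77 and 12.25 ± 0.14 log2 CPM (SD, n = 5, 4 and 2). FIGLA, an oocyte transcription factor, was at 9.56 ± 2.33, 7.30 ± 2.07 and 10.85 ± 0.86. KPNA7, an oocyte importin, was at 8.52 ± 0.82, 8.81 ± 1.12 and 7.68 ± 0.34, NLRP5, a maternal effect protein, at 5.82 ± 1.14, 5.70 ± 0.44 and 5.69 ± 1.11, and NOBOX, an oocyte transcription factor, at 3.79 ± 0.71, 3.1 ± 0.63 and 2.70 ± 2.35. STAR, a cholesterol transport protein listed here with cumulus and granulosa cells, had counts in all 11 oocytes, at 7.47 ± 0.64, 7.82 ± 0.42 and 6.51 ± 0.75 log2 CPM. SRGN, a proteoglycan listed with leukocytes, was at 7.38 ± 2.31, 5.55 ± 2.56 and 4.23 ± 4.06, with 3819 counts in T1.1 and 1308 in T2.4 as the highest, and CSF1R, a receptor of macrophages, at 3.43 ± 1.43, 3.57 ± 0.29 and 2.19 ± 2.69. With 5 of 16 oocyte, 1 of 24 cumulus and granulosa, 2 of 20 leukocyte and 0 of 8 erythrocyte markers named, these lists are too incomplete to check the samples for other cells. The part of other cells, and of RNA quality, in the results above was not tested.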

How the data were processed

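Per the labels and the study's methods, single oocytes were processed by Smart-seq2 and sequenced as single-end reads; trimming by the authors used Trim Galore (0.6.6 in the submitters' processing notes; the methods give another version), alignment to the ARS-UCD1.2 build used HISAT2 and quantification used SeqMonk. The deposited values are raw read counts per Ensembl gene, without normalization. Whether counting used strand, which annotation release was used and whether duplicates were removed is not given in the sources used here, so reads of overlapping genes cannot be told apart.

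Counts of the 11 oocytes kept by the study were fitted in 1 model of the 3 time points with the quasi-likelihood test of edgeR 4.0.16 (limma 3.58.1, R 4.3.3), with TMM factors, filterByExpr (10198 genes) and Benjamini-Hochberg adjustment over all genes tested; a gene was called at an adjusted p under 0.05 with an absolute log2 fold change over 1.5. p-values measure the spread between these oocytes. Levels are log2 CPM with a prior count of 2. Symbols came from the study's list, which pairs 1741 of 1829 identifiers with one; all 43 member symbols are protein-coding in RefSeq (assembly ARS-UCD2.0, used for names only). The members, the lists of translation factors, mitochondrial translation factors, ribosome biogenesis, respiratory chain and marker genes and the tests were chosen with earlier results of these data known. Values by oocyte are given for the 2 members of each class with the highest mean level, the 2 with the lowest p in T2 against T1 and the 1 with the lowest p in T3 against T2, and for MRPS18A and MRPS18C; the values of RPSA, RPL28, RPS9, MRPS21, MRPL46 and MRPS12 were chosen after being seen.

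The alternatives were the likelihood ratio test, DESeq2 1.42.0, the robust fit, RLE and upper-quartile factors, library size alone, TMM factors without the members, no filter, a minimum of 10 counts per oocyte, prior counts of 0.5 and 5, all 15 oocytes, a replicate block and each oocyte left out in turn. The procedure was tested on simulated data. Class values cover all members; 2 members are not reported singly here.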

Additional observations from a re-analysis of the deposited data

Results flagged for a closer look

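In 95 groups of values of 4 to 6 oocytes (16 members and 8 class values, by time point), 7 had 1 oocyte far from the others by Dixon's criterion. Chance alone meets it in about 1 group in 20 where values are independent and normal. The groups share oocytes and members, and some values are zeros set at 1 common level, so that rate is no reference for the 7. T1.1 had a mean over the 7 mitochondrial large subunit members of 3.09 log2 CPM, where the nearest T1 oocyte was at 5.45, both among the 5 T1 oocytes kept and among all 6. T1.2 stood apart in RPS29, at 10.3 log2 CPM against 7.58 in the nearest of the other T1 oocytes kept. T3.1 accounted for the rest, all among the 5 T3 oocytes: it was low in MRPL39 at 6.99 log2 CPM (nearest 9.49), it had no count of MRPS18C and MRPS14, each at -0.31 log2 CPM through the prior count (nearest 10.7 and 9.20), and it was the one T3 oocyte with counts of MRPS12, at 5.15 log2 CPM against -0.31 in the others.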

How the results depend on the processing

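The class median of the cytosolic members between T2 and the other groups kept its sign under every alternative run, while the number of calls varied. Leaving out each oocyte in turn, the cytosolic median was between -3.26 and -2.03 in T2 against T1 and between 2.62 and 3.32 in T3 against T2, but between -0.23 and 1.08 in T3 against T1. In T2 against T1, where the quasi-likelihood test called 0 genes and 0 members, calls over all genes and over members were 53 and 11 with all oocytes except T3.1, 361 and 24 by the likelihood ratio test, 469 and 24 by DESeq2, 234 and 22 with no filter and 158 and 23 with a minimum of 10 counts per oocyte. In T3 against T1 they were 139 and 0 by the likelihood ratio test, 349 and 1 by DESeq2, and 1 and 0 both with legacy=FALSE in the quasi-likelihood fit and with no filter. In T3 against T2 they were 85 and 8 except T3.1, 701 and 26 by the likelihood ratio test, 912 and 27 by DESeq2, 306 and 14 with legacy=FALSE, 17 and 2 with RLE factors, 59 and 5 with library size alone, 371 and 22 with no filter and 214 and 19 with that minimum. The legacy=FALSE fit and the set without T3.1 were chosen after seeing the data. Leaving out each oocyte gave 0 to 376 genes and 0 to 21 members in T2 against T1 (376 and 21 without T1.1), 0 to 15 genes in T3 against T1 (15 without T1.2), and 0 to 403 genes and 0 to 24 members in T3 against T2 (403 and 24 without T1.2, 316 and 12 without T1.1, 94 and 3 without T3.2).

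In T3 against T1 members at an unadjusted p under 0.05 numbered 0 with a minimum of 10 counts and 2 to 12 with an oocyte left out (12 without T1.2). Members whose groups did not overlap numbered 0 in T3 against T1 with all 15 oocytes (0.912% of all genes) and 0 except T3.1 (1.4%), 1 to 10 with an oocyte left out (10 without T3.2, 7 without T1.2 and 5 without T3.4, beside 33.6%, 16.2% and 29.0% of all genes), and 9 in T3 against T2 with all 15 (9.72%). The mitochondrial median with that minimum, where fewer members were left, was -1.96 in T2 against T1 and 2.4 in T3 against T2. With TMM factors refitted to all 15 oocytes, unlike the levels by oocyte, the cytosolic mean of T3 was 7.72 log2 CPM. The mitochondrial mean of T3, whose SD over 2 oocytes was small, was 4.13 with all 15 refitted likewise, 4.72 except T3.1, 4.94 with RLE and 4.90 with upper-quartile factors, 4.79 with library size alone, 4.97 with TMM factors without the members, 4.53 and 5.30 with prior counts of 0.5 and 5, and 4.91 to 5.01 with an oocyte left out. MRPS12 turned with all 15 oocytes, to 0.36 in T3 against T1 and 1.63 in T3 against T2, where T3.1 holds its counts. MRPL37 in T3 against T2 turned to -0.10 with upper-quartile factors, -0.27 with library size alone, -0.01 without T1.2, -0.01 without T1.3, -0.03 without T2.1 and -2.57 without T3.2, within a range of -2.57 to 0.87 over the oocytes left out. The cause of the other shifts was not tested.

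Same-numbered oocytes come from different animals, and the deviations of 6 same-numbered pairs correlated between -0.02 and 0.14, with 1 over 0.1; 4 of 11 oocytes correlated best with their own number. With a replicate block the quasi-likelihood test called 1 gene and 0 members in T3 against T2, with 19 members at an unadjusted p under 0.05 there and 1 in T3 against T1. The cytosolic median under the block was -2.78 in T2 against T1 and 2.16 in T3 against T2. In T3 against T1, 23 of the 28 cytosolic members were below 0 under the block, against 9 in the main fit. MRPS18A turned to 0.68 in T2 against T1 and MRPL37 to -1.07 in T3 against T2 under the block. With 2 T3 oocytes and 3 excluded ones of low depth, differences with T3 rest on few oocytes.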

Other observations

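Subunits of the respiratory chain and of ATP synthase, whose mitochondrially encoded partners are made on the mitochondrial ribosome, were compared with the ribosomal proteins. Of 29 subunits that the study's list names, 24 were lower in T2 than in T1 (9.41% of all genes tested) and 23 higher in T3 than in T2 (9.03%) at an unadjusted p under 0.05 by the edgeR quasi-likelihood test, which called 0 of them after adjustment. Their median log2 fold change was -2.64 in T2 against T1 and 3.34 in T3 against T2. NDUFA4, a protein of cytochrome c oxidase, was at 11.04 ± 1.31, 9.22 ± 0.39 and 12.08 ± 0.55 log2 CPM in T1, T2 and T3 (SD, n = 5, 4 and 2), and COX6C, a subunit of the same complex, at 11.42 ± 1.3, 8.97 ± 1.04 and 13.00 ± 1.37. Most of these subunits stand on the DF side of the same list as the cytosolic members. RRN3, a factor of ribosomal RNA transcription, had 7.28 ± 0.68, 8.28 ± 0.15 and 8.08 ± 0.21, and UTP20, a processing factor of ribosomal RNA, had 8.10 ± 1.07, 8.99 ± 0.36 and 8.24 ± 0.78; in T2 against T1 their log2 fold changes were 0.87 ± 0.41 and 0.58 ± 0.52.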
